A study of Mus musculus with 12 samples.

Results

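The genes described here were 36 members of the machinery that folds proteins in the endoplasmic reticulum (ER) and removes those that do not fold, out of 23849 gene symbols in the liver RNA-seq table. They were named as a list and looked up by symbol. The list holds 11 chaperones and co-chaperones, 6 folding enzymes, 9 degradation genes, 6 stress sensors and 4 translocon genes. The list was chosen from general knowledge after a large decrease of 1 member, Sdf2l1, between the 2 times of day was known, so its members were in effect selected on the change from ZT0 to ZT12. That change is therefore given as a description without a test, and the treatment comparisons are tested. Of the members, 35 had a row of their own, and Pdia4 was read from a row that it shares with the microRNA gene Mir704. All 36 had a mean of at least 1 FPKM (a level scaled by transcript length and by the reads of the library) and were among the 9806 genes tested.

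The study asked how a gel-forming blend of fibers given by mouth, named Libramed in the sample labels and Policaptil Gel Retard by the study, changes the liver of mice on a high-fat diet (HFD). All 12 mice were males of C57BL/6J background, 8 weeks old per the design text, fed HFD for several weeks before treatment, per the study's methods, and then fed HFD and treated for 2 weeks, so that no mouse on normal diet is part of these data. There were 4 groups of 3 mice: vehicle at ZT0, Libramed at ZT0, vehicle at ZT12 and Libramed at ZT12. Zeitgeber time (ZT) counts hours from lights on, so ZT0 closes and ZT12 opens the active phase. Doses were given by oral gavage shortly before lights off, and vehicle mice received drinking water. The labels name no genetic change in any group.

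Secreted and membrane proteins enter the ER through the translocon, are folded there by chaperones of the Hsp70, Hsp90 and lectin families, and receive their disulfide bonds from protein disulfide isomerases. When unfolded proteins accumulate, the sensors Atf6, Ern1 (IRE1) and Eif2ak3 (PERK) start the unfolded protein response, which raises chaperones and the genes of ER-associated degradation, the route by which faulty proteins are moved back to the cytosol and destroyed. Hepatocytes secrete most plasma proteins, and in mouse liver this load follows the daily feeding cycle.

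Atf6 and the transcription factor Xbp1 act through the ER stress response element (ERSE), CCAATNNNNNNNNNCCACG, which was searched on both strands in RefSeq promoters of build GRCm38.p6, from 250 bases before to 50 bases after the transcription start. Of the 36 members, 30 had a promoter in that table, and 10 of the 30 (33.3%) held an ERSE, against 37 of 27025 genes (0.137%) and 39 of 32851 promoters (0.119%). The element was defined on promoters such as those of Hspa5, Hsp90b1 and Calr, so its presence there was known beforehand. The sites are printed because these members span chaperones, folding enzymes and degradation genes. Each line gives the gene, then the strand of the promoter as written 5′ to 3′, with the fixed letters of the element in capitals and 12 bases of context on either side; where capitals read CGTGG and then ATTGG, the element lies on the opposite strand.
Hspa5, chr2:34772013-34772055 (plus): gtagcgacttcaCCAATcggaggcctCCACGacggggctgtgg
Calr, chr8:84847063-84847105 (minus): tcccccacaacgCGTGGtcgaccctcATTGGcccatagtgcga
Derl3, chr10:75893230-75893272 (plus): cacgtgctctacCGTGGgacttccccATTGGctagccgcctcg
Hsp90b1, chr10:86705626-86705668 (minus): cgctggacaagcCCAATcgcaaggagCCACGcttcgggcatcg
Hsp90b1, chr10:86705521-86705563 (minus): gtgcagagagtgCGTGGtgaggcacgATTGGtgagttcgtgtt
Canx, chr11:50325788-50325830 (minus): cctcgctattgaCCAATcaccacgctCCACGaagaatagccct
Pdia6, chr12:17266479-17266521 (plus): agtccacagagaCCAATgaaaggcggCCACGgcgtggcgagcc
Ero1lb, chr13:12565670-12565712 (plus): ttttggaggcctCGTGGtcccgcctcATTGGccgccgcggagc
Dnajc3, chr14:118937815-118937857 (plus): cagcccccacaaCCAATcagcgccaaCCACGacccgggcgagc
Creld2, chr15:88819508-88819550 (plus): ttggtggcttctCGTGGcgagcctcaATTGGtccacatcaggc
Syvn1, chr19:6046520-6046562 (plus): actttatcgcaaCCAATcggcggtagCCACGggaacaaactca
Counted from the RefSeq transcription start, these elements began between position −212 (Hsp90b1) and position −44 (Syvn1), and Hsp90b1 held 2 of them. The start can differ in GENCODE vM21, where the Hspa5 gene begins at 34771970, so that the Hspa5 site lies inside it. Of 32 promoter windows of the members, 26 had their end in a GENCODE transcript. A second form, ERSE-II (ATTGGNCCACG), was added to the search after the first results were seen. It was found in Herpud1 and Dnajb11, 2 of 30 members (6.67%), against 0.0444% of genes, and in Herpud1 it began at position −52.
Herpud1, chr8:94386365-94386399 (plus): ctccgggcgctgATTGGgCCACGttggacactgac
The core CCACG, which both forms contain, was present in 26 of 30 members (86.7%) and in 35.5% of genes. Sdf2l1, the member with the largest difference between times, held 3 copies of CCACG and no full element. The unfolded protein response element TGACGTGG, which overlaps this core read on the other strand, was in 0 of 30 members (0.714% of genes). The ATF4-C/EBP composite element TGATGNAAN was in 1 of 30, Herpud1 (3.33%, against 4.5% of genes). A match says only that these letters stand in the window. Manf, Hyou1, Derl1, Atf6, Sec61a1 and Ssr2 had no entry.

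Values summed to between 634683 and 759355 FPKM per library. The table holds no read totals, and depth relative to vehicle ZT0 replicate 1, estimated from the spacing of very low values, lay between 0.717 and 1.29. Of 8 clock genes that peak towards evening, 8 were higher at ZT12 with vehicle and 7 with Libramed, which goes with the time labels. Of 7 hepatocyte markers 6 were tested and highly expressed (Apoa1 had a mean of 24802 FPKM over the 12 mice), while Alb, which encodes albumin, is listed at 0 throughout. As livers make albumin, a value of 0 in this table can be a failed estimate and does not show that a gene is silent. Of 11 markers of the acinar cells of the pancreas, which hold much of this machinery, 6 were listed at 0 in all libraries (Cpa1, Cpb1, Prss1, Amy2a5, Ptf1a and Clps), and the highest was Cela1 at 52.2 FPKM. Of 8 plasma and B cell markers, Mzb1 had a mean of 0.455 FPKM and Tnfrsf17 was listed at 0, while Sdc1, which hepatocytes also express, had 73.1.

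Most of these genes stood lower at the beginning of the active phase than at its end, with larger median differences for chaperones and folding enzymes than for degradation genes. With vehicle, 34 of 36 members were lower at ZT12 than at ZT0, with a median log2 difference of −0.71, where the median of all 9806 genes tested was 0.0078. With Libramed, 34 of 36 were lower, with a median of −0.51 against 0.013 for all genes. The exceptions were Ern1 and Creb3l3 with vehicle and Herpud1 and Creb3l3 with Libramed. All mice at ZT12 were below all mice at ZT0 for 32 members with vehicle and 25 with Libramed, where the share over all genes was 15.8% in each. The members were picked on this contrast, so nothing is read from the counts. In whole liver, fewer cells of a type and less RNA per cell cannot be told apart. Of 9 endothelial and stellate markers 7 were tested, and all 7 were lower at ZT12 in both treatments (medians −0.39 and −0.42). Their summed level went from 38.4 to 62.1 FPKM at ZT0 and from 32.2 to 47.6 at ZT12 with vehicle, and from 52.7 to 68.3 and from 28.1 to 45.2 with Libramed. The 7 macrophage markers tested were all lower at ZT12 with vehicle (median −0.35, summed level 57.6 to 67.4 FPKM at ZT0 and 29.9 to 77.7 at ZT12), and 2 of 7 were lower with Libramed (median 0.07). No marker of either list was at 0, and their part in the change of the members was not tested. The 6 hepatocyte markers tested had medians of −0.09 and 0.09. Differences below are on the scale of log2(FPKM + 1), with the standard error (SE) of the fit and n = 3 mice a group, and mouse values follow replicate numbers 1 to 3.

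**Figure D1:**
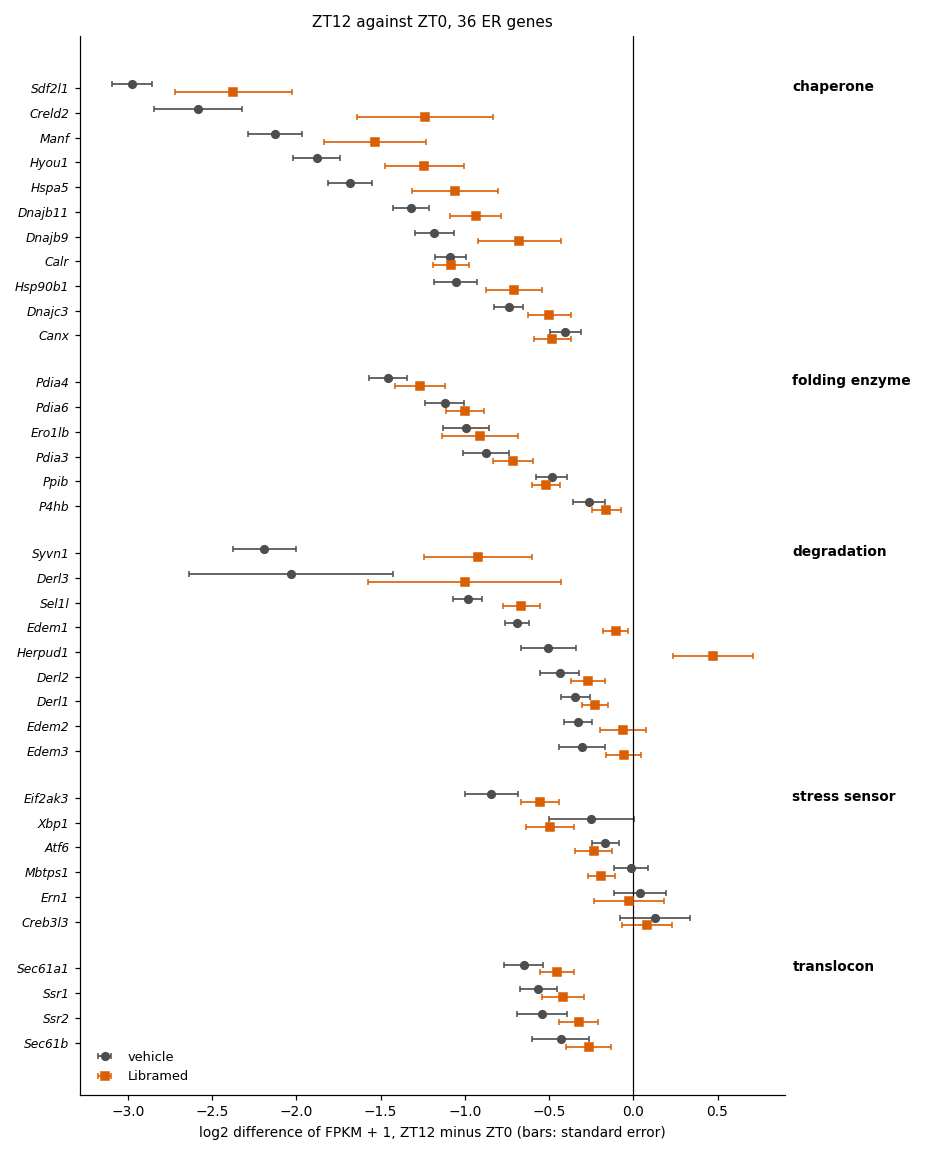
Log2 difference of FPKM + 1 between ZT12 and ZT0 for each of the 36 genes, by class, with vehicle (circles) and Libramed (squares); bars are standard errors from limma, 3 mice against 3. Chaperones and folding enzymes all lie left of 0 in both treatments, while Ern1 and Creb3l3 lie near 0 and Herpud1 lies on opposite sides.

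The chaperones and co-chaperones showed the largest differences between times, with a median of −1.32 for vehicle and −1.06 for Libramed, and all 11 were lower at ZT12 in both. Sdf2l1, an ER partner of the Hsp70 co-chaperone Dnajb11, lies on chromosome 16 at 17130138 to 17132383 (minus strand, GENCODE vM21). Sdf2l1 stood at 138, 147 and 144 FPKM in the vehicle mice at ZT0 and at 119.8, 55.2 and 83.3 in the Libramed mice. At ZT12 Sdf2l1 stood at 20.5, 17.1 and 14.8 with vehicle and 12.2, 11.3 and 24.2 with Libramed. All mice at ZT12 were below all mice at ZT0, and the 3 Libramed mice at ZT0 were below the 3 vehicle mice. Sdf2l1 differed by −2.97 ± 0.12 with vehicle, an 8.18-fold lower mean FPKM, and by −2.37 ± 0.35 with Libramed, 5.41-fold lower. It ranked 3rd from the lowest of all genes tested with vehicle.

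Creld2, a small ER protein that is induced when folding is disturbed, is on chromosome 15 at 88819646 to 88826683 (plus strand, GENCODE vM21) and carries an ERSE. In the morning Creld2 had 124, 229 and 129 FPKM with vehicle and 117, 42.5 and 72.1 with Libramed. In the evening Creld2 had 30.3, 19.6 and 25.96 with vehicle and 22.5, 24.1 and 47.8 with Libramed. The times were far apart with vehicle, while Libramed ZT12 replicate 3 lay above Libramed ZT0 replicate 2. The difference between times was −2.58 ± 0.26 with vehicle and −1.24 ± 0.41 with Libramed.

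Hspa5 (BiP), the Hsp70 of the ER and a repressor of its stress sensors, was second in abundance among the members in vehicle mice at ZT0, on chromosome 2 at 34771970 to 34777547 (plus strand, GENCODE vM21). Hspa5 had 722, 959.6 and 819 FPKM with vehicle and 719, 451 and 617 with Libramed at ZT0. By ZT12 Hspa5 was at 287, 244 and 244 with vehicle and 249, 220.0 and 402 with Libramed. Times did not overlap in either treatment, and Libramed ZT12 replicate 3 was far above its group. The mean was 3.23-fold lower at ZT12 with vehicle (−1.68 ± 0.13) and 2.05-fold lower with Libramed (−1.06 ± 0.26).

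Partners of Hspa5 followed the same order. Manf, an ER protein that binds Hspa5 and can be secreted, measured 149, 151 and 131 FPKM with vehicle and 130.4, 69.98 and 106 with Libramed at ZT0. For ZT12, Manf measured 41.5, 28.3 and 27.9 and 31.9, 24.02 and 49.2. Manf was lower at ZT12 by −2.13 ± 0.16 and −1.53 ± 0.30, without overlap of times. Hyou1, the nucleotide exchange factor of Hspa5, measured 90.2, 129 and 101 FPKM with vehicle and 94.1, 57.4 and 76.2 with Libramed at ZT0. At ZT12, Hyou1 measured 29.3, 25.7 and 28.9 and 26.5, 26.3 and 42.4. Its differences were −1.88 ± 0.14 and −1.24 ± 0.23, again without overlap of times. Dnajb9, a co-chaperone that hands clients and the sensor Ern1 to Hspa5, measured 50.1, 47.6 and 49.5 FPKM with vehicle and 37.01, 22.7 and 29.3 with Libramed at ZT0. At ZT12, Dnajb9 measured 24.9, 18.4 and 20.4 and 13.7, 16.3 and 25.3. Libramed ZT12 replicate 3 lay above Libramed ZT0 replicate 2, so that times overlapped with Libramed and not with vehicle (−0.68 ± 0.25 and −1.18 ± 0.12).

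The remaining chaperones were Hsp90b1, Calr, Canx, Dnajb11 and Dnajc3. Hsp90b1 (Grp94), the Hsp90 of the ER, had a mean of 490.0 ± 75.7 FPKM (SD, n = 3) at ZT0 and 234 ± 12.01 at ZT12 with vehicle, and 422 ± 77.8 and 257 ± 40.8 with Libramed. Calr, a lectin chaperone that holds newly made glycoproteins, had nearly the same difference in both treatments (−1.09 ± 0.09 and −1.08 ± 0.10). Canx, its membrane-bound relative, had the smallest of the class, −0.40 ± 0.09 and −0.48 ± 0.11. Dnajb11 and Dnajc3, both J-domain co-chaperones, differed by −1.32 ± 0.11 and −0.74 ± 0.08 with vehicle and by −0.94 ± 0.15 and −0.50 ± 0.13 with Libramed.

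**Figure D2:**
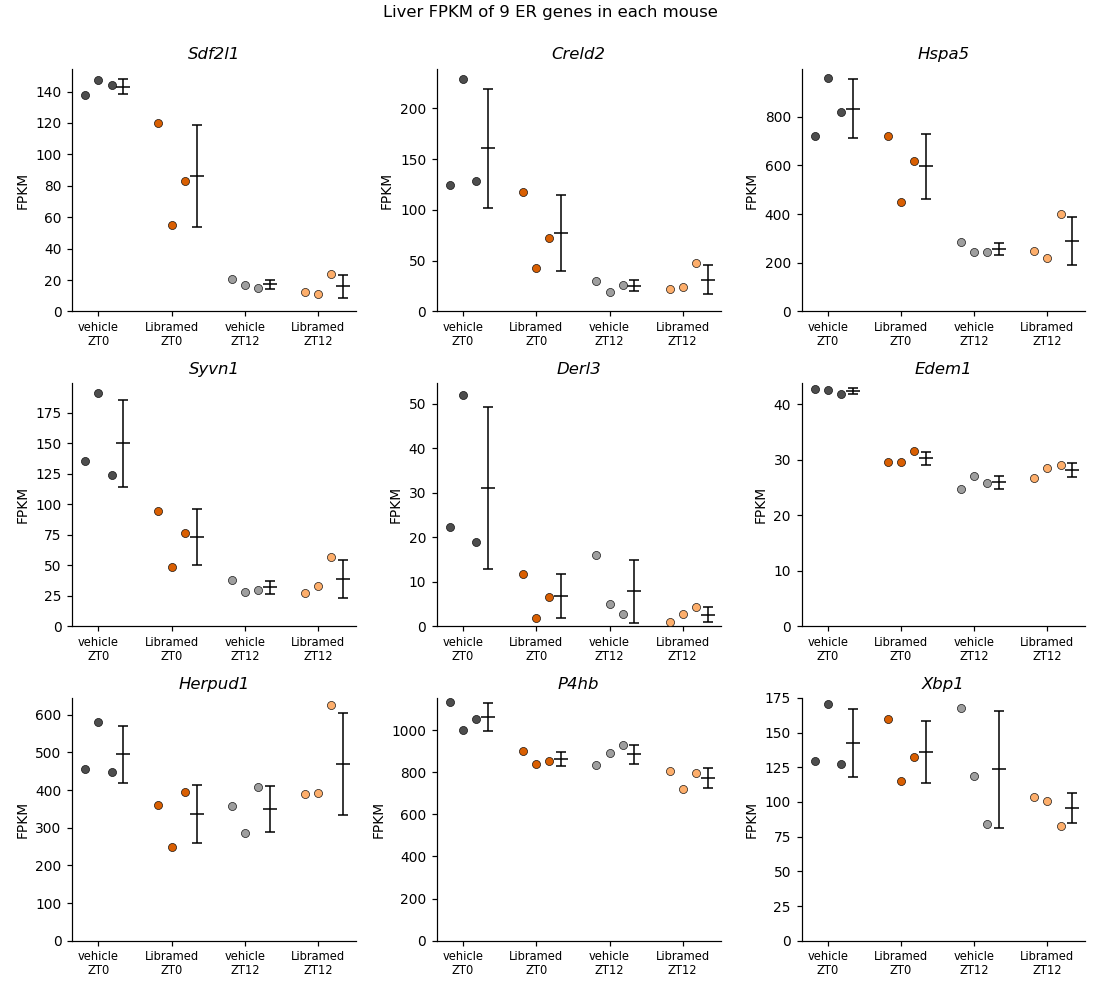
FPKM (linear axis from 0) of 9 genes in each of the 12 mice; points are mice in order of replicate number, and the bar beside them is the mean with 1 SD. Sdf2l1, Creld2, Hspa5 and Syvn1 are highest in the vehicle mice at ZT0. Edem1 is highest in that group and lies between 24.8 and 31.6 FPKM in the other 3. Xbp1 overlaps between the treatments at both times.

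All 6 folding enzymes were lower at ZT12 in both treatments, with medians of −0.93 and −0.81, and times did not overlap for any of them. Pdia4, a large disulfide isomerase, had 171, 217 and 197 FPKM with vehicle and 178, 136 and 157 with Libramed at ZT0. Its levels at ZT12 were 70.8, 64.4 and 75.7 and 65.4, 53.98 and 75.4. That was the largest difference of the class, −1.46 ± 0.11 with vehicle and −1.26 ± 0.15 with Libramed. P4hb, the founding disulfide isomerase and also a subunit of prolyl 4-hydroxylase, was the most abundant member, on chromosome 11 at 120560298 to 120573253 (minus strand, GENCODE vM21). P4hb had 1133, 1002 and 1055 FPKM with vehicle and 900.3, 839.9 and 852 with Libramed at ZT0. In the ZT12 mice P4hb was at 836, 891 and 928 with vehicle and 804, 719 and 797 with Libramed. It had the smallest difference between times of the class (−0.26 ± 0.09 and −0.16 ± 0.09), and the Libramed mice were below the vehicle mice at both times. Pdia6 and Pdia3, isomerases that act with Hspa5 and with the lectin chaperones, differed by −1.12 ± 0.12 and −0.87 ± 0.14 with vehicle. Ero1lb, the oxidase that recharges isomerases, and Ppib, a proline isomerase, differed by −0.99 ± 0.14 and −0.48 ± 0.09.

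The degradation genes were split. With vehicle, all 9 were lower at ZT12 without overlap of times (median −0.50). With Libramed, 8 were lower (median −0.23), and times did not overlap for 4. Syvn1 (Hrd1), the ubiquitin ligase at the centre of the route, lies on chromosome 19 at 6046576 to 6053712 (plus strand, GENCODE vM21) and carries an ERSE close to its start. Syvn1 had 135, 191 and 124 FPKM with vehicle and 94.4, 48.5 and 76.1 with Libramed at ZT0. For ZT12 mice, Syvn1 was at 37.8, 27.7 and 29.8 with vehicle and 26.8, 32.6 and 56.3 with Libramed. The Libramed mice at ZT0 were all below the vehicle mice, and times overlapped with Libramed alone. The difference between times was −2.19 ± 0.19 with vehicle and −0.92 ± 0.32 with Libramed. Sel1l, the adaptor of Syvn1, had 37.6, 43.3 and 37.8 FPKM with vehicle and 31.7, 25.9 and 27.5 with Libramed at ZT0. Sel1l at ZT12 had 19.1, 20.1 and 19.2 and 16.1, 17.1 and 19.4. Neither treatment showed an overlap of times (−0.98 ± 0.09 and −0.66 ± 0.11).

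Edem1, which trims the glycans of misfolded proteins and so marks them for disposal, gave tight values within each group. On chromosome 6 at 108828641 to 108859356 (plus strand, GENCODE vM21), Edem1 gave 42.7, 42.6 and 41.7 FPKM with vehicle and 29.6, 29.6 and 31.6 with Libramed at ZT0. Evening Edem1 was 24.8, 27.1 and 25.8 with vehicle and 26.6, 28.5 and 29.1 with Libramed. The vehicle mice at ZT0 thus stood above all 9 other mice, which lay between 24.8 and 31.6 FPKM. With Libramed, all mice at ZT12 were below all mice at ZT0. Edem1 differed between times by −0.69 ± 0.07 with vehicle and by −0.10 ± 0.08 with Libramed. Edem2 and Edem3, its relatives, differed by −0.33 ± 0.08 and −0.31 ± 0.14 with vehicle and by −0.06 ± 0.13 and −0.06 ± 0.10 with Libramed.

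Herpud1, a membrane scaffold that assembles the Syvn1 complex and a target of several arms of the stress response, is on chromosome 8 at 94386438 to 94395377 (plus strand, GENCODE vM21). Herpud1 had 457, 582 and 447 FPKM with vehicle and 361, 249 and 396 with Libramed at ZT0. Later, Herpud1 had 357, 286 and 407 with vehicle and 389, 392 and 627 with Libramed. It was the one degradation gene with opposite signs, −0.50 ± 0.16 with vehicle and 0.47 ± 0.24 with Libramed. Derl3, one of the derlins that form the exit channel, is on chromosome 10 at 75893413 to 75895941 (plus strand, GENCODE vM21) and had the largest SE of the list. Derl3 had 22.3, 52.1 and 18.97 FPKM with vehicle and 11.7, 1.92 and 6.65 with Libramed at ZT0. Derl3 values at ZT12 were 15.98, 4.87 and 2.64 and 0.861, 2.64 and 4.23. Libramed mice were below vehicle mice at ZT0, within a spread of several-fold inside each group (−2.03 ± 0.60 and −1.001 ± 0.57 between times). Derl1 and Derl2, the broadly expressed derlins, differed by −0.34 ± 0.09 and −0.44 ± 0.11 with vehicle.

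The stress sensors had medians of −0.09 and −0.21 between times, with the largest differences in Eif2ak3 and, with Libramed, in Xbp1. Eif2ak3, the kinase that slows translation, had 6.398, 6.59 and 8.03 FPKM with vehicle and 5.24, 4.36 and 5.602 with Libramed at ZT0. Eif2ak3 had 4.53, 3.01 and 2.97 with vehicle and 2.75, 3.44 and 3.21 with Libramed at ZT12. It was lower at ZT12 without overlap of times in both treatments (−0.84 ± 0.16 and −0.55 ± 0.11). Ern1, the sensor that splices Xbp1 RNA, had 3.38, 5.48 and 4.79 and 4.32, 4.604 and 5.61 FPKM at ZT0 with vehicle and Libramed. Ern1 at ZT12 had 4.48, 4.35 and 5.11 and 3.42, 6.85 and 4.36. All 4 groups overlapped, and the differences between times were 0.04 ± 0.15 and −0.03 ± 0.21. Atf6, the sensor that is cut in the Golgi and then moves to the nucleus, had 8.09, 7.93 and 7.43 and 7.75, 7.27 and 8.97 FPKM at ZT0 with vehicle and Libramed. Atf6 at ZT12 had 6.496, 6.89 and 7.21 and 6.09, 6.39 and 7.43. The differences were small, −0.17 ± 0.08 and −0.24 ± 0.11.

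Xbp1, the factor made active by splicing, had 129.7, 171 and 127 and 159.6, 115 and 132 FPKM at ZT0 with vehicle and Libramed. Xbp1 at ZT12 had 167, 119 and 83.9 and 103, 101 and 82.9. Its times overlapped with vehicle (−0.25 ± 0.25) and not with Libramed (−0.49 ± 0.14). One value per gene does not separate the spliced from the unspliced form. Mbtps1, the protease that cuts Atf6, had 13.7, 17.1 and 15.5 and 14.8, 15.97 and 15.4 FPKM at ZT0 with vehicle and Libramed. Mbtps1 at ZT12 had 14.3, 15.9 and 15.4 and 13.9, 13.9 and 12.4. The vehicle mice overlapped between times, and the Libramed mice at ZT12 were below all others of that treatment and below the vehicle mice of the same time. Creb3l3, a liver factor cut by the same protease, was slightly higher at ZT12 in both (0.13 ± 0.21 and 0.08 ± 0.15), within its SE.

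The 4 translocon genes lay between. Sec61a1, the channel itself, had a mean of 97.4 ± 10.6 FPKM (SD, n = 3) at ZT0 and 61.6 ± 6.16 at ZT12 with vehicle, and 82.7 ± 6.84 and 60.2 ± 5.65 with Libramed. Sec61b, Ssr1 and Ssr2, smaller subunits of the channel and of its associated complex, differed by −0.43 ± 0.17, −0.56 ± 0.11 and −0.54 ± 0.15 with vehicle. The class medians were −0.55 with vehicle and −0.37 with Libramed.

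Libramed was compared with vehicle within each time to ask what the treatment changes in the liver. At ZT0 the members were lower with Libramed: 33 of 36 had a negative log2 difference, with a median of −0.30 against −0.02 for all genes tested. By class, the medians were −0.50 for chaperones, −0.47 for degradation genes, −0.24 for folding enzymes, −0.22 for translocon genes and −0.02 for stress sensors. None of these differences passed the adjustment over all genes. In limma, the smallest adjusted p of a member was 0.264 (Edem1), and 0% of all genes passed. At an unadjusted p under 0.05, 18 of 36 members were lower and 0 higher, where 5.81% of all genes were lower and 3.42% higher. They were 8 of 11 chaperones, 7 of 9 degradation genes, 2 of 6 folding enzymes, 1 of 6 stress sensors and 0 of 4 translocon genes. All Libramed mice were below all vehicle mice for 18 members, against 9.94% of all genes. The count of 18 fell to 11 without vehicle ZT0 replicate 2 or 3, to 10 without Libramed ZT0 replicate 2 and to 9 without Libramed ZT0 replicate 3. This comparison shares its vehicle mice with the change over time on which the members were selected, so the counts are not independent of that selection.

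Among single members at ZT0, Edem1 differed by −0.47 ± 0.08, Dnajb9 by −0.73 ± 0.17 and Sel1l by −0.47 ± 0.11, with limma adjusted p of 0.264, 0.336 and 0.339. The largest differences were those of Derl3 (−2.15 ± 0.57), Creld2 (−1.11 ± 0.39) and Syvn1 (−1.05 ± 0.26), whose mean FPKM were 4.603, 2.08 and 2.05-fold lower. Hspa5 was lower by −0.50 ± 0.19, Herpud1 by −0.58 ± 0.20 and Eif2ak3 by −0.40 ± 0.12. Of abundant members, Calr and Ppib differed by −0.08 ± 0.11 and −0.07 ± 0.11, and P4hb, the most abundant, by −0.30 ± 0.10. Canx, at a lower level, differed by −0.03 ± 0.10. Ern1 and Atf6 had differences of 0.09 ± 0.16 and 0.03 ± 0.10. Macrophage markers moved in the same direction at ZT0: of 9 markers 7 were tested, and all 7 were lower with Libramed (median −0.48), and their summed level was 57.6 to 67.4 FPKM with vehicle and 32.5 to 53.0 with Libramed. None of the 9 was at 0. Some other lists went the other way: 6 of 7 endothelial and stellate markers tested were higher with Libramed (median 0.21). So were 2 of 3 blood markers tested (median 0.52) and the 2 acinar markers tested (median 0.18). Of 5 fat markers 1 was tested, Cfd, which was lower with Libramed (−1.49, limma adjusted p = 0.532). Sdc1, the 1 plasma and B cell marker tested, differed by −0.06. Of the 6 hepatocyte markers tested, 3 were higher and 3 lower with Libramed (median 0.02, from −0.64 for Tat to 0.36 for Apoa1). Their summed level, in which Apoa1 is the largest term, was 30230 to 34214 FPKM with vehicle and 35657 to 44071 with Libramed, without overlap. The part of these cell types in the result was not tested.

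**Figure D3:**
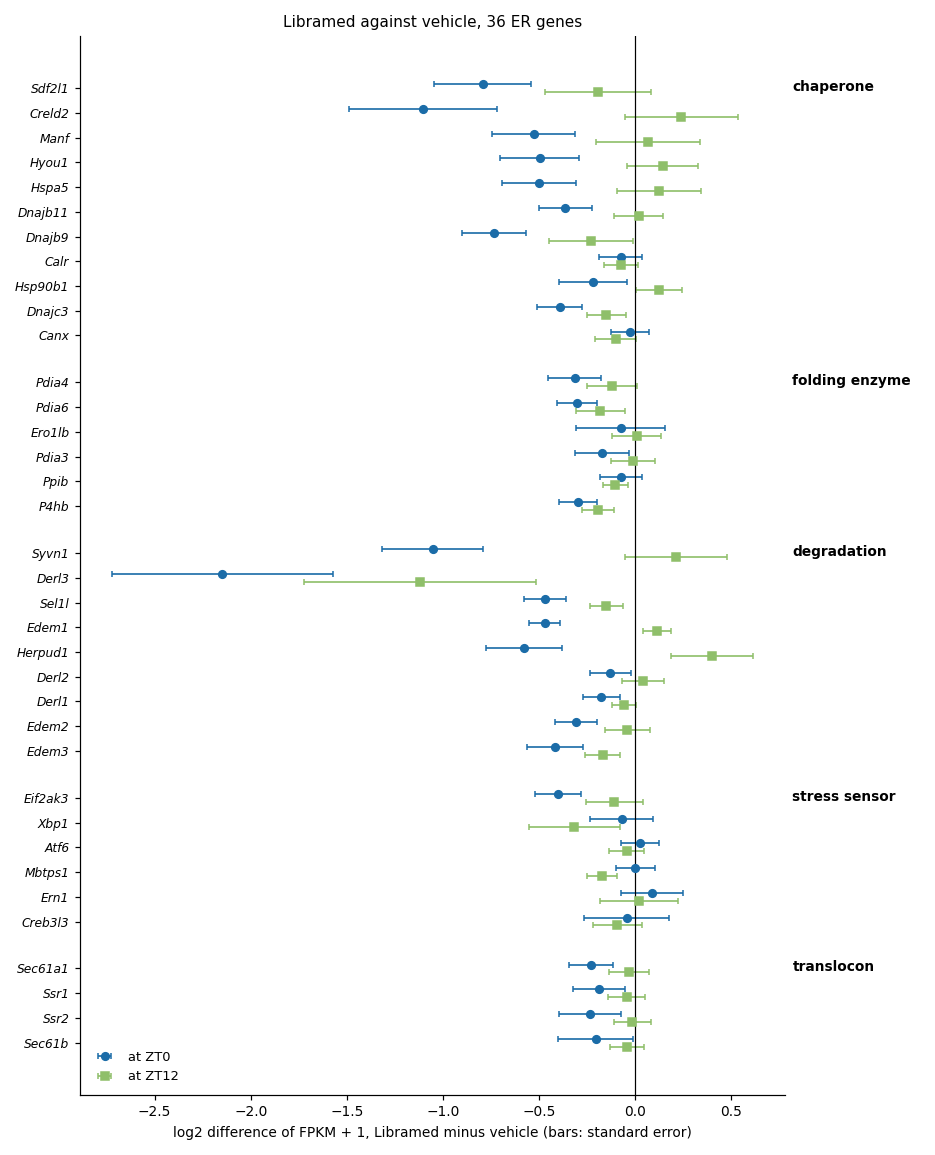
Log2 difference of FPKM + 1 between Libramed and vehicle for each of the 36 genes, by class, at ZT0 (circles) and ZT12 (squares); bars are standard errors from limma, 3 mice against 3. At ZT0 33 of 36 points lie left of 0, and at ZT12 24 do, most of them within a bar of 0.

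At ZT12 differences between treatments went in both directions and most were within their SE. Of 36 members 24 were lower with Libramed, with a median of −0.04 against −0.014 for all genes. The chaperones had 5 lower and 6 higher (median 0.02), and the degradation genes 5 lower and 4 higher (median −0.04). At an unadjusted p under 0.05, 1 member, P4hb, was lower (−0.19 ± 0.08) and 0 were higher, where 3.67% of all genes were lower and 3.07% higher. The smallest limma adjusted p was 0.729, and 0% of all genes passed. The count of 1 became 5 without Libramed ZT12 replicate 3, 2 without vehicle ZT12 replicate 3, and 0 without vehicle ZT12 replicate 2 or without Libramed ZT12 replicate 1 or 2. In those runs, in that order, 5.53%, 2.60%, 2.60%, 2.81% and 2.68% of all genes were lower. All Libramed mice lay below all vehicle mice for P4hb, Ppib and Mbtps1 (−0.10 ± 0.06 for Ppib and −0.17 ± 0.08 for Mbtps1). The share of all genes without overlap at ZT12 was not counted, so nothing is read from this. The largest difference at ZT12 was that of Derl3, −1.12 ± 0.60, a 3.04-fold lower mean FPKM with Libramed, and Xbp1 differed by −0.32 ± 0.24, both with overlapping mice. Herpud1 stood on the other side, 0.40 ± 0.22, with overlapping mice. The comparison at ZT12 also shares its vehicle mice with the change over time on which the members were selected.

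Over both times, with time in the model, 35 of 36 members were lower with Libramed (median −0.17, all genes −0.02). In limma 10 were lower and 0 higher at an unadjusted p under 0.05, where 6.28% of all genes were lower and 3.82% higher. After adjustment 0 members passed, with a smallest adjusted p of 0.259 (P4hb), and 0.0204% of all genes did. The count was 18 without Libramed ZT12 replicate 3, where 7.85% of all genes were lower. As this fit includes the mice of the change over time, its counts are not independent of the selection either. P4hb was lower by −0.25 ± 0.06, and exact permutation of the treatments within each time gave p = 0.005, the smallest that its 400 arrangements allow. Sel1l differed by −0.31 ± 0.08 and Derl3 by −1.63 ± 0.47, with exact permutation p = 0.015 for each, and limma adjusted p of 0.303 and 0.336. These 3 members had the smallest p in limma. By exact permutation Edem3 had p = 0.01 and Derl1 p = 0.015, and the exact p were not adjusted for the 36 members.

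The interaction of time and treatment tests whether the step from ZT0 to ZT12 differed between treatments. It was positive for 29 of 36 members, with a median of 0.21 against 0.0047 for all genes. In these members a positive value stands for a smaller decrease with Libramed, except in Herpud1, which was higher at ZT12 with Libramed. By class the medians were 0.50 for chaperones, 0.32 for degradation genes, 0.18 for translocon genes, 0.11 for folding enzymes and −0.07 for stress sensors. At an unadjusted p under 0.05, 5 members were positive and 0 negative, where 3.82% of all genes were positive and 2.8% negative. They were Edem1, Herpud1, Syvn1, Creld2 and Sel1l. None passed the adjustment in limma (smallest adjusted p 0.337), as for 0% of all genes. The count rose to 11 without Libramed ZT0 replicate 1, to 9 without Libramed ZT12 replicate 2 and to 8 without vehicle ZT0 replicate 1 or Libramed ZT12 replicate 1. It was 3 without vehicle ZT0 replicate 2, Libramed ZT0 replicate 2 or Libramed ZT12 replicate 3. Of all 9806 genes, 375 were positive with all mice. In the runs just named, in that order, 394, 358, 520, 413, 395, 330 and 316 were. The vehicle change over time enters this contrast, so it too is not independent of the selection.

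Members tended to be high or low in the same mouse of a group. In the Libramed group at ZT0, replicate 1 was the highest mouse for 29 of 36 members and replicate 2 the lowest for 26. In the Libramed group at ZT12, replicate 3 was the highest for 24 and replicate 2 the lowest for 19. Vehicle mice were less uniform, with replicate 2 the highest for 21 members at ZT0 and replicate 1 the highest for 21 at ZT12. The share of all genes with these orders was not counted. By small steps, the median log2(FPKM + 1) of all genes tested was highest in the same mouse of each group. It was 3.112, 3.083 and 3.107 in the Libramed mice at ZT0 and 3.097, 3.102 and 3.137 at ZT12. With vehicle it was 3.117, 3.136 and 3.128 at ZT0 and 3.134, 3.128 and 3.122 at ZT12. The mean log2(FPKM + 1) of the 11 chaperones was 7.22, 7.51 and 7.32 in the vehicle mice and 7.19, 6.55 and 6.89 in the Libramed mice at ZT0, and 5.93, 5.69 and 5.79 and 5.62, 5.59 and 6.19 at ZT12. Libramed ZT0 replicate 1 was thus close to the vehicle mice, and Libramed ZT12 replicate 3 lay above every other mouse of that time. The stress sensors spanned 4.11 to 4.70 over all 12 mice.

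**Figure D4:**
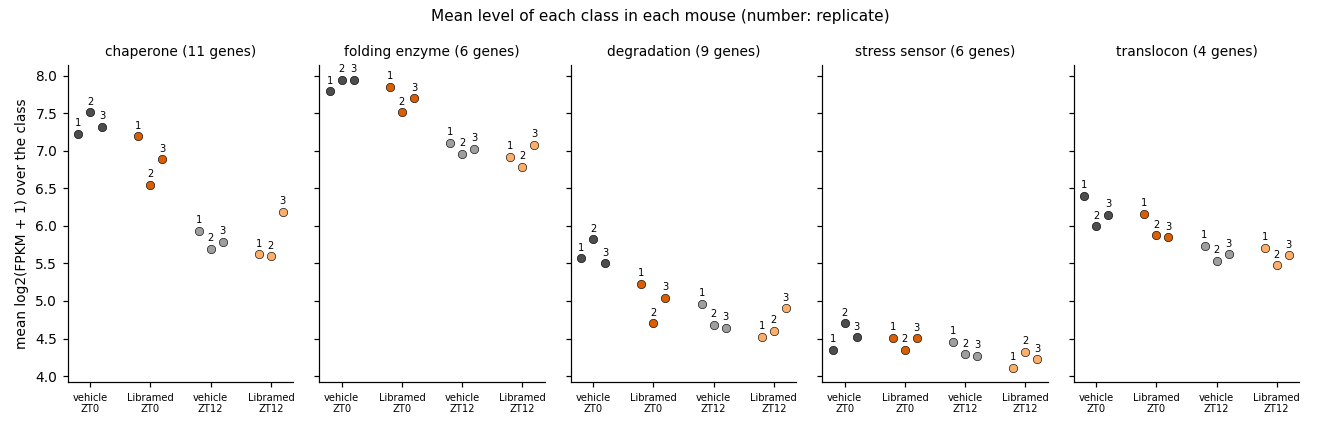
Mean log2(FPKM + 1) over the genes of each class in each mouse (the axis does not start at 0); numbers are replicates. Chaperones range from 7.51 in vehicle ZT0 replicate 2 to 5.59 in Libramed ZT12 replicate 2, and the stress sensors stay between 4.11 and 4.70.

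Members with the ERSE sites printed above were set beside those without. Between times the 10 members with an ERSE had a median difference of −1.10 with vehicle and −0.96 with Libramed. For the 20 with a promoter and no ERSE the medians were −0.49 and −0.34, and for the 6 without an entry −0.60 and −0.39. These differences in median are descriptions, since the time change chose the members, and Sdf2l1, without the element, had the largest difference of all. The treatment difference at ZT0 had a median of −0.35 in the 10 members with an ERSE and −0.30 in the 20 with a promoter and no ERSE. It shares its vehicle mice with that time change, so it is not independent of the selection either. Outside the list 27 genes held an ERSE, and 6 of them were expressed enough to be tested: Acacb, Acnat2, Alg12, Hnrnpa3, Pan2 and Xlr3a. Alg12, a mannosyltransferase that builds the glycan precursor in the ER, differed by −1.16 between times with vehicle and by −0.36 with Libramed. Acacb, an enzyme of fatty acid metabolism, differed by 0.09 and 1.099.

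**Figure D5:**
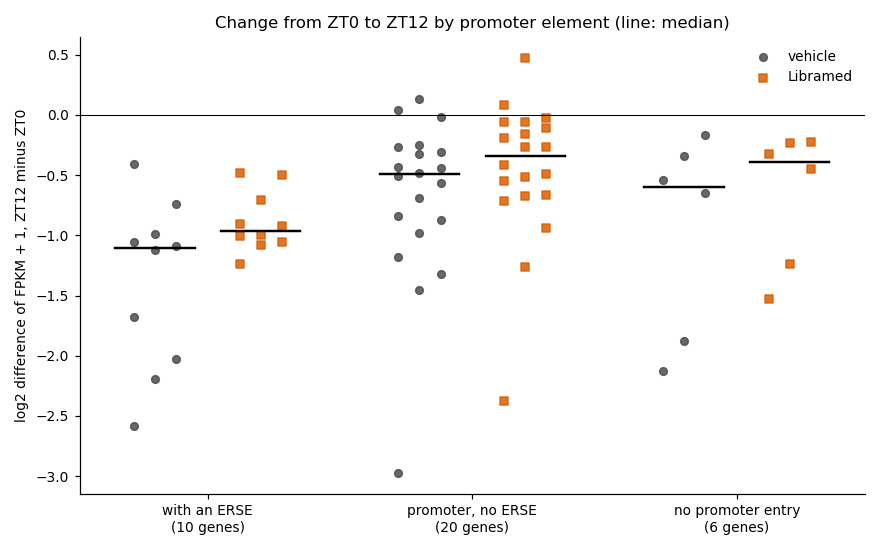
Log2 difference of FPKM + 1 between ZT12 and ZT0 for the 36 genes, by presence of an ERSE in the RefSeq promoter, with vehicle (circles) and Libramed (squares); horizontal lines are medians. The genes with an ERSE have medians of −1.10 and −0.96, and the lowest single gene, Sdf2l1, is among those without.

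Other genes of the same pathway were listed from general knowledge, with earlier results of these data known, and the 2 with the largest mean change over time are named for each of 4 lists. Their change over time is thus not independent of that knowledge, and the named genes were picked on it. Nothing is read from the counts and adjusted p over time given below, including those of Ddit3 and Trib3. Over the 104 tested, the median difference between times was −0.19 with vehicle and −0.13 with Libramed. With vehicle, 28 had an adjusted p under 0.05 in limma and were lower at ZT12 and 0 were higher, where 4.78% of all genes were lower and 5.62% higher. With Libramed 12 were lower and 1 higher, where 5.36% of all genes were lower and 7% higher. Translocation and glycosylation genes made up 13 of the 28 and 9 of the 12. Ostc, a subunit of the enzyme that attaches glycans, fell by 0.88 ± 0.12 with vehicle (adjusted p = 0.00945) and by 0.50 ± 0.11 with Libramed (adjusted p = 0.0303). Uggt1, which tests glycoproteins for correct folding, fell by 0.70 ± 0.07 and 0.49 ± 0.09 (adjusted p = 0.00527 and 0.0201). Spcs2, of the signal peptidase, fell by 0.73 ± 0.12 and 0.50 ± 0.13 (adjusted p = 0.0138 and 0.0468). Fkbp11, a proline isomerase, Vimp and Selk, both selenoproteins of the degradation route, fell with vehicle by 0.90 ± 0.21, 0.64 ± 0.13 and 0.57 ± 0.13 (adjusted p = 0.0420, 0.0300 and 0.0358). With Libramed their differences were −0.72 ± 0.24, −0.57 ± 0.16 and −0.37 ± 0.11, with adjusted p of 0.0986, 0.0603 and 0.0723.

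Ddit3 (CHOP), a factor made when ER stress persists, had a mean of 31.7 ± 8.03 FPKM (SD, n = 3) at ZT0 and 11.1 ± 1.51 at ZT12 with vehicle. With Libramed Ddit3 had 18.4 ± 2.19 and 16.8 ± 8.17. It fell by 1.42 ± 0.20 with vehicle (limma adjusted p = 0.0101) and differed by −0.22 ± 0.28 with Libramed (adjusted p = 0.666), and its interaction of 1.20 ± 0.38 did not pass (adjusted p = 0.597). Trib3, an inhibitor induced with it, differed by −0.63 ± 0.22 and −0.82 ± 0.26 (adjusted p = 0.124 and 0.0858). For the treatment at ZT0, 83 of the 104 genes were lower with Libramed, 16 lower and 1 higher at an unadjusted p under 0.05 (5.81% and 3.42% of all genes), and 0 passed the adjustment. At ZT12 those counts were 7 lower and 2 higher (3.67% and 3.07% of all genes), and over both times 18 and 1 (6.28% and 3.82%). For the interaction 8 were positive and 1 negative (3.82% and 2.8%).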

How the data were processed

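Liver RNA-seq of 12 mice was available as 1 deposited table of FPKM values per gene symbol and sample, made by the authors, and groups were assigned from the sample labels. The methods of the study describe stranded mRNA libraries, ELAND alignment to mm10 and RPKM, whereas a TruSeq RNA v2 kit is named in the labels, and the submitters' processing notes name TopHat, Cuffnorm and mm10 (GRCm38). Which route made the table is not settled here. Counts were not used, so precision rests on the spread of 3 mice a group, which the labels call biological replicates. Of 24138 lines, 289 repeat a symbol, of which the one highest on average was used.

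A pseudocount of 1 was added to FPKM before log2 transformation, which understates differences of low genes, and symbols averaging under 1 FPKM were left out. limma 3.58.1 in R 4.3.3 (mean-variance trend, two-sided, Benjamini-Hochberg adjustment over 9806 genes) was fitted to the 6 mice of each simple comparison and to all 12 for the interaction and the shared treatment effect. Treatments were also permuted exactly within each time (400 arrangements). All fits were tested on simulated data. The members and lists were chosen with earlier results of these data known. Every member is named by class. Values per mouse are given for the 8 members with the largest mean change over time, the 3 with the smallest p in each treatment comparison and the interaction, and Hspa5, Xbp1, Atf6, Ern1 and Eif2ak3. Gene positions are from GENCODE vM21 (GRCm38), promoters from RefSeq (GRCm38.p6), with 1-based coordinates. Ero1lb was matched to its newer symbol Ero1b. Alternatives were a pseudocount of 0.1, no minimum or a minimum mean of 5 FPKM, no trend, median-ratio scaling, quantile normalization, 1 fit over 12 samples, a replicate block and leaving out each mouse.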

Additional observations from a re-analysis of the deposited data

Results flagged for a closer look

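For 5 of 36 members the change from ZT0 to ZT12 differed between treatments at an unadjusted p under 0.05 in limma's interaction test. All 5 were positive, where 3.82% of all genes were positive and 2.8% negative. None passed the adjustment over all genes. The vehicle change over time, on which the members were selected, enters this contrast. The exact p below come from the same mice on which the 5 were picked. Creld2 had an interaction of 1.35 ± 0.54 on the log2 scale (adjusted p = 0.705, exact permutation p = 0.085), with changes of −2.58 with vehicle and −1.24 with Libramed. Syvn1 had 1.27 ± 0.41 (adjusted p = 0.597, exact permutation p = 0.04), with −2.19 and −0.92. Herpud1 had 0.98 ± 0.32 (adjusted p = 0.597, exact permutation p = 0.015), with −0.50 and 0.47. Edem1 had 0.59 ± 0.09 (adjusted p = 0.337, exact permutation p = 0.01), with −0.69 and −0.10. Sel1l had 0.32 ± 0.14 (adjusted p = 0.732, exact permutation p = 0.21), with −0.98 and −0.66. Each difference was computed from 3 mice in each of 4 groups, with the labels permuted within each time. This permutation supposes no treatment effect at either time. An effect shared by both times also enters its distribution, so its p is not one of the interaction alone. In Herpud1, Syvn1, Creld2 and Sel1l, Libramed ZT12 replicate 3 was the highest mouse of its group and Libramed ZT0 replicate 2 the lowest of its own. For Edem1, Libramed ZT12 replicate 3 was also the highest, while Libramed ZT0 replicate 1 was the lowest. The 7 macrophage markers tested also had positive interactions (median 0.36), while 5 of 7 endothelial and stellate markers had negative ones (median −0.11). The part of these cell types in the differences was not tested.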

How the results depend on the processing

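With leaving out each mouse in turn, the count of members lower with Libramed at ZT0 (18, unadjusted p under 0.05) ranged from 9 to 20. Over those runs the share of all genes that were lower ranged from 3.46% to 7.33%. At ZT12 the count (1) ranged from 0 to 5 and the share from 2.60% to 5.53%. Over both times the count (10) ranged from 7 to 18 and the share from 4.32% to 7.85%. Positive interactions (5) ranged from 3 to 11 members, and from 316 to 520 of all 9806 genes. The counts of members lower at ZT12, with no test, ranged from 33 to 36 with vehicle (34) and from 32 to 34 with Libramed (34). The count of members lower with Libramed at ZT12 became 0 with a pseudocount of 0.1, without the trend, with median-ratio scaling and with the replicate block. It was 2 with no minimum FPKM and with quantile normalization. In these runs 3.18% to 3.72% of all genes were lower. The replicate block gave 14 members at ZT0, 12 over both times and 4 interactions. With that block 4.64% and 6.25% of all genes were lower, and 408 of 9806 interactions were positive. Same-numbered mice did not deviate together, with correlations from −0.279 to 0.257, so the numbers were not taken to pair mice. The medians of the members kept their sign in every alternative run. Adjusted p of the best member ranged over the alternatives from 0.0947 to 0.806 at ZT0, 0.533 to 0.902 at ZT12, 0.197 to 0.552 over both times and 0.147 to 0.712 for the interaction.

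Among the 108 differences of the members with values per mouse, no treatment or interaction result gained an adjusted p under 0.05 in any alternative run. Some differences changed sign, and the cause was not tested. The difference of Atf6 over both times was 0.0065 with median-ratio scaling and 0.0054 with quantile normalization, and the interaction of P4hb was −0.0207 with quantile normalization. Leaving out each mouse in turn gave, at ZT0, ranges of −0.051 to 0.0841 for Atf6, −0.0751 to 0.2084 for Ern1, −0.1928 to 0.0655 for Xbp1 and −0.0791 to 0.0719 for Mbtps1. At ZT12 they were −0.0945 to 0.4317 for Creld2, −0.2023 to 0.3002 for Manf, −0.1368 to 0.2968 for Hspa5, −0.0788 to 0.2564 for Hyou1, −0.2355 to 0.0021 for Pdia4, −0.0886 to 0.4339 for Syvn1, −0.1182 to 0.0064 for Atf6, −0.211 to 0.2028 for Ern1 and −0.1916 to 0.0466 for Eif2ak3. Over both times they were −0.244 to 0.0547 for Herpud1, −0.0477 to 0.0169 for Atf6 and −0.0455 to 0.1384 for Ern1, and for the interaction −0.1435 to 0.0059 for Atf6, −0.298 to 0.1158 for Ern1 and −0.4941 to 0.0003 for Xbp1. Between times they were −0.121 to 0.1625 for Ern1 and −0.095 to 0.0561 for Mbtps1 with vehicle, and −0.2569 to 0.1569 for Ern1 with Libramed. Without counts or read totals, no counting error can be given for any gene.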
